A study of Drosophila melanogaster with 16 samples.

Results

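The ionotropic receptor (Ir) genes of Drosophila melanogaster were placed on the chromatin map of the early embryo. Members were all protein-coding genes whose symbol begins with Ir, a number and a lower-case letter in RefSeq's gene annotation of Release 6, which is the dm6 assembly. The rule found 60 genes among 13922 protein-coding genes on 6 chromosome arms (2L, 2R, 3L, 3R, 4 and X). All 60 carry an IR synonym in the annotation, so symbol and family name match. A further 6 entries with such symbols are pseudogenes and were not members.

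The map came from Micro-C, in which micrococcal nuclease cuts the linkers of crosslinked chromatin and DNA ends that lie close together in the nucleus are ligated and sequenced. Embryos of the yw control line, labelled WT for genotype, were collected for 45 min at 25 °C, aged for 2 h and sorted by hand at nuclear cycle 14, when the blastoderm cellularises. The 3 deposited lists describe this line alone and have no column for either of its 2 samples, and the other 14 samples of the series, which carry edited genotypes, were not analysed here. Whole embryos were used, so a feature of a few cells may not be listed.

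Ionotropic receptors are ligand-gated cation channels that arose from ionotropic glutamate receptors. They detect acids, amines, salts, temperature and humidity in sensory neurons of the antenna and of the taste organs. Most work as complexes of a tuning receptor with a broadly expressed co-receptor (Ir8a, Ir25a, Ir76b or Ir93a). The genes act in sensory neurons that do not exist at the blastoderm stage. A boundary is a bin of chromatin across which contacts are depleted, a domain is the interval between neighbouring boundaries, and a loop joins 2 anchors that contact each other more than their surroundings do.

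The list of boundaries held 1930 different bins of 400 bp on the compared arms, with strengths from 1.2502 to 9.50 and a median of 1.64. Strength is the authors' score for each bin, and weaker boundaries are not listed. The list of loops held 313 entries with values from 4.26 to 653 and a median of 7.75, again as scored by the authors. Each feature has a single value without an error between samples, and sequencing depth is unknown. All values below are descriptions of this map. No difference between gene lists was tested.

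By its midpoint, every Ir gene lay in a domain with a boundary on each side, as did 13859 of the 13922 protein-coding genes. Wholly inside their domain lay 58 Ir genes, all but Ir31a and Ir41a. The 60 Ir genes were spread over 37 domains. Arm 2R carried 18 of them, 3R 14, 3L 13, X 11 and 2L 4, and chromosome 4 none. The domains ran from 6.80 kb for Ir68b to 394.4 kb for Ir84a, the receptor of food odours that promote male courtship. The median over the genes was 132 kb, with quartiles of 57.2 and 216.1 kb, against 112.8 kb with quartiles of 52.4 and 206.4 kb over all protein-coding genes. Domains of 100 kb or more held 41 Ir genes (68.3%), where 54.1% of all protein-coding genes lay in such domains. Only Ir31a and Ir68b lay in domains of 15 kb or less (3.33%, against 6.17% of all genes).

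**Figure D1:**
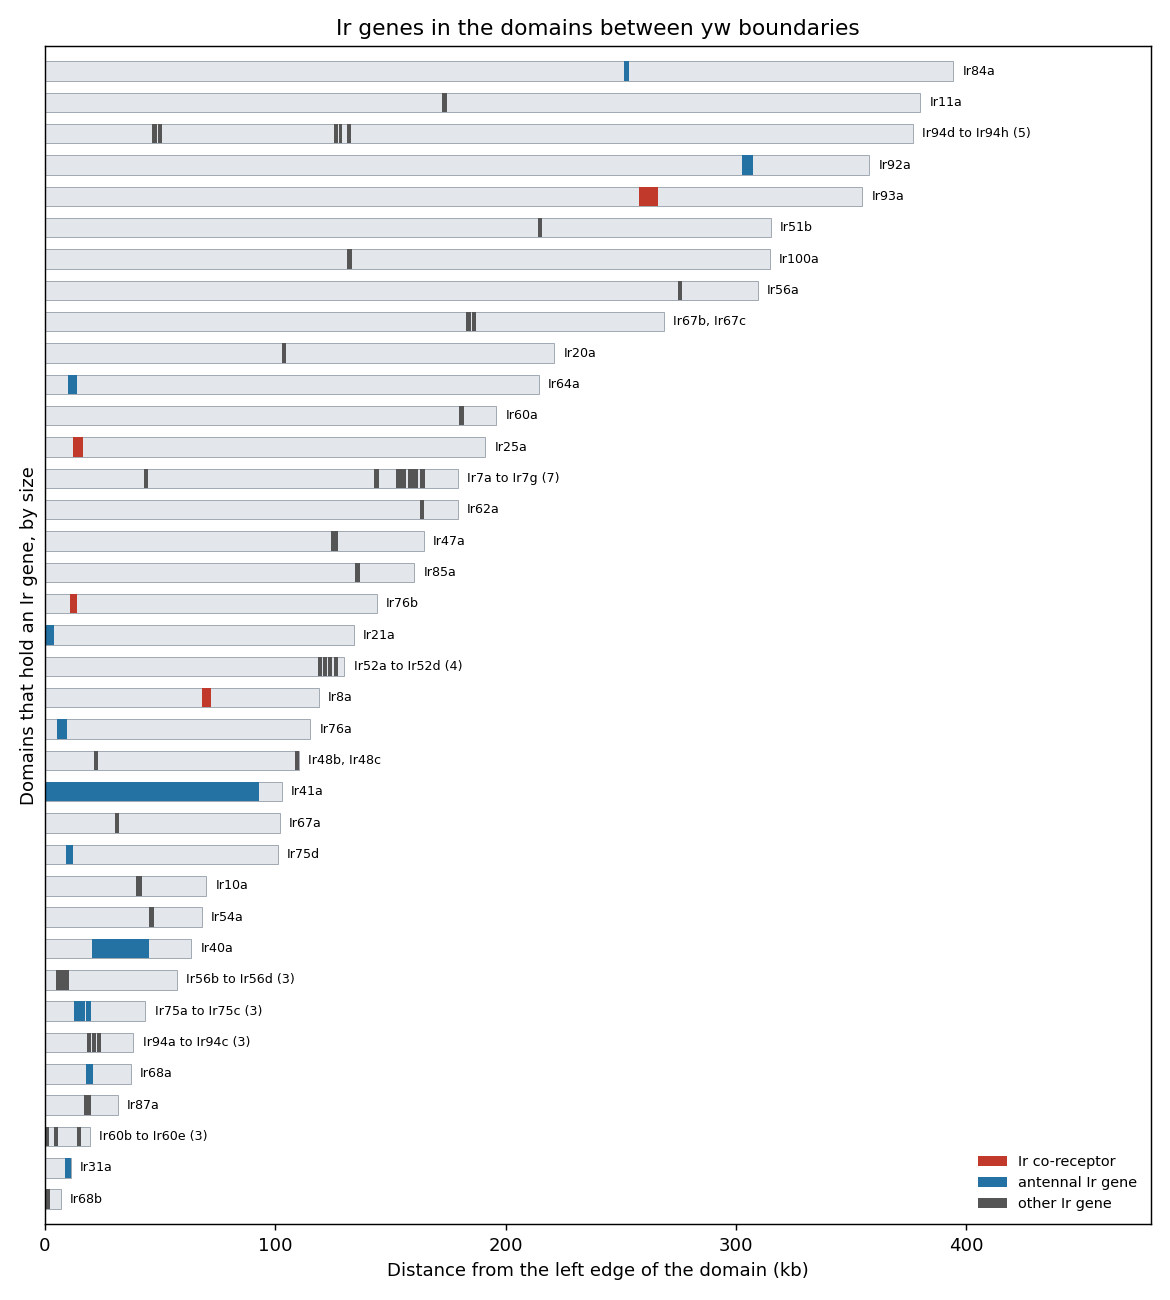
Each bar is one of the 37 domains that hold an Ir gene, drawn from its left edge (x axis, kb) and sorted by size, with the Ir genes marked by class (co-receptors red, antennal receptors blue, others grey). The bars range from 6.80 to 394.4 kb, and the domain of Ir7a to Ir7g holds the most members, with 7.

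The 5 largest domains included that of a co-receptor and those of 2 antennal receptors. They were those of Ir84a (394.4 kb), Ir11a (380 kb), the genes Ir94d to Ir94h (376.8 kb), the ammonia receptor Ir92a (358 kb) and the co-receptor Ir93a (354.8 kb). The domains of Ir84a and of Ir94d to Ir94h each held 49 protein-coding genes, and that of Ir11a held 18. The 5 smallest were those of Ir68b (6.80 kb, 3 genes), Ir31a (11.2 kb, 4 genes), Ir60b with Ir60d and Ir60e (19.6 kb, 6 genes), Ir87a (31.6 kb, 6 genes) and Ir68a (37.2 kb, 2 genes). The small domains thus held from 2 to 6 genes each. Ir68a, the moist-air receptor of the antenna, shared its domain with CG42671 alone. Counted per gene, the Ir domains held a median of 15.5 protein-coding genes, against 15 over all genes. In the 50 kb on either side of an Ir gene the median number of other genes was 12.5, against 15.

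The boundaries that enclose the Ir domains were more often weak than strong. Of the 74 domain edges, 47 (63.5%) had a strength below the median of the map, and the median edge strength was 1.55. Over all 1571 domains that hold a protein-coding gene, 54% of edges were below it, with a median edge strength of 1.61. In the 26 Ir domains of 100 kb or more the share was 63.5%, against 49.8% in the 416 gene-bearing domains of that size. The strongest boundary at the edge of an Ir domain, of strength 3.74 and rank 39 of 1930, lay inside Ir41a. The next were a boundary of 3.40 on the right of Ir40a, the dry-air receptor, and one of 3.34 on the right of Ir93a.

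The 4 co-receptors all lay in domains of more than 100 kb, where 54.1% of all genes lay in domains of 100 kb or more. No boundary lay within 1 kb of their ends (18.2% of all genes had one), and no anchor did (2.14%). Counts over 4 genes are too small to set them apart from all genes. Ir25a and Ir76b were closer to a boundary than the median of all protein-coding genes (14.2 kb), while Ir8a and Ir93a were farther. Ir8a, the co-receptor of acid-sensing olfactory neurons (X, 9232726 to 9236585), stood 46.6 kb from the nearest boundary and 47.4 kb from the nearest anchor, in a domain of 118.8 kb. Ir25a, the most widely expressed co-receptor (2L, 4830846 to 4835300), was 12046 bp from a boundary of strength 1.43 in a domain of 191.2 kb with 40 genes. Ir76b, the co-receptor of amine and taste neurons (3L, 20108484 to 20111534), was 10.9 kb from a boundary of 1.35 in a domain of 144 kb. Ir93a, needed for temperature and humidity sensing (3R, 20851709 to 20859945), was 88.5 kb from the nearest boundary and 964 kb from the nearest anchor. Among the 60 genes only Ir64a, at 970 kb, was farther from an anchor than Ir93a. None of the co-receptor domains held a whole loop, where 21.4% of all genes were in a domain with one. None of the 4 genes lay inside another gene, where 11.3% of all genes did.

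The 13 antennal receptors outside the co-receptors had a median domain of 101.2 kb, and 7 of the 13 (53.8%) lay in domains of 100 kb or more, a share close to the 54.1% of all genes. Their median distance to a boundary was 12.8 kb, against 20.8 kb for the 43 remaining Ir genes, many of them taste receptors. Only 2 members of the family had a boundary overlapping the gene, Ir31a and Ir41a, and both are antennal (3.33% of the 60 genes, against 10.3% of all protein-coding genes). A longer span has more room for a boundary, so these shares are not like for like. The median length was 1.91 kb for Ir genes and 2.16 kb for all genes. It was 3.25 kb for the antennal receptors and 1.82 kb for the 43 remaining Ir genes. A count of 2 genes is too small to set the antennal receptors apart. The annotated span of Ir41a, a receptor of polyamines and pyrrolidine, covers 104.4 kb of 2R (4917519 to 5021955), the longest of the family. It held boundaries of 2.29 and 3.74, at 6882 and 11282 bp from its left end. The remaining part of the gene lay in a domain of 102.8 kb of which Ir41a was the only protein-coding gene. Ir40a spans 24.9 kb of 2L and shared a domain of 63.6 kb with CG3635. The acid receptors Ir75a, Ir75b and Ir75c stood side by side in a domain of 43.6 kb, 12.8 kb from its left edge. Ir64a, another acid receptor, lay 9.99 kb from a boundary of 1.29, and Ir76a, an amine receptor, 5.28 kb from one of 1.76.

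Boundaries at Ir gene ends were few. An end of 5 of the 60 genes (8.33%) lay within 1 kb of a boundary, where 18.2% of all protein-coding genes did. In domains of 100 kb or more the counts were 2 of 41 Ir genes (4.88%) and 8.26% of all genes. In smaller domains they were 3 of 19 Ir genes (15.8%) and 29.5% of all genes. Both size classes thus had a lower share among the Ir genes than among all genes, on counts of 2 and 3. The 5 genes were Ir21a, Ir31a, Ir48c, Ir60b and Ir68b.

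Ir21a, the cool receptor of the antenna (2L, 21823 to 25155), had its left end 623 bp from a boundary at 20801 with strength 2.49, rank 206 of 1930. The bin lay inside the cell-polarity gene l(2)gl, 176 bp from the end of that gene that faces Ir21a. Ir31a (2L, 10405565 to 10408197) had its right end inside the boundary at 10408001, with strength 2.32 and rank 258. The same bin held an end of Ip259 and of RpS27A, the gene of a ubiquitin and ribosomal protein fusion. Ir68b (3L, 12125487 to 12127394) had its left end 287 bp from the boundary at 12124801, with strength 2.24 and rank 294, and the bin held an end of the Y-box gene yps. In each of these cases a gene outside the receptor family had an end as close to the bin as the Ir gene, or closer.

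Ir60b, a pharyngeal receptor that limits sugar intake (2R, 24515685 to 24517458), had its left end 85 bp from the boundary at 24515201. Its strength was 1.56 (rank 1135), and an end of the mitochondrial gene Letm1 lay in the same bin. Ir48c (2R, 11787808 to 11789493) had its right end 108 bp from the boundary at 11789601, whose strength of 1.29 (rank 1795) was close to the lowest listed. Ir48c differed from the other 4 in that the next gene end, of CG42493, was 10366 bp away. The boundary lay inside ths, as the one at Ir21a lay inside l(2)gl. For 4 of the 5 boundaries, then, another protein-coding gene had an end within 176 bp. Such a gene end is common at boundaries in general, since 72.9% of the 1930 had at least 1 gene end within 1 kb and 54.4% had ends of at least 2 genes.

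**Figure D2:**
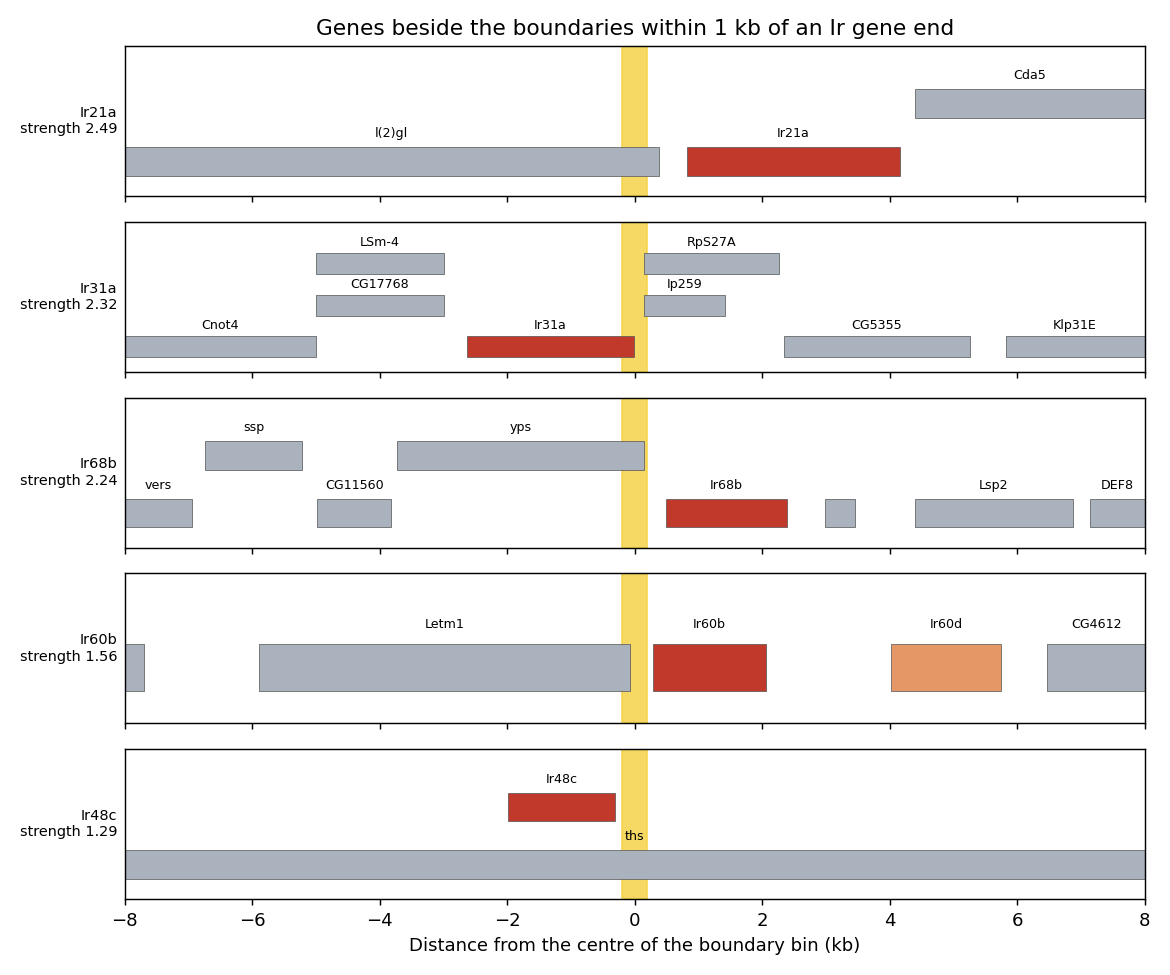
Protein-coding genes (bars; the Ir gene in red, a further Ir gene in orange, others grey) are drawn by their distance from the centre of the boundary bin (gold, x axis in kb) for the 5 boundaries within 1 kb of an Ir gene end, strongest at the top. An end of a gene outside the family lies in or within 176 bp of the bin at Ir21a, Ir31a, Ir68b and Ir60b. At Ir48c, where the bin lies inside ths, the next gene end is 10366 bp away.

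Just outside the limit of 1 kb, the nearest were Ir52d, with an end 2835 bp from a boundary of strength 1.27 that lay 110 bp from Pgant1, and Ir60d and Ir60e, at 3823 and 3929 bp from the edges of their small domain. Ir56b, a receptor of low sodium taste, stood 4967 bp from a boundary of 1.38 that holds an end of CG11007. At the far end of the range, Ir11a lay 172.4 kb from a boundary, Ir84a 140.6 kb and Ir100a 131.4 kb. In all, 7 Ir genes (11.7%) were 100 kb or more from a boundary, against 6.41% of all genes. The median distance of an Ir gene to the nearest boundary was 17.4 kb, with quartiles of 8.91 and 43.8 kb, against a median of 14.2 kb and quartiles of 2.80 and 40.4 kb over all genes. The order of the medians turned when only boundaries of at least the median strength were used, with 35.9 kb for Ir genes and 42.4 kb for all genes. With all boundaries, the lists differed most in the lower quartile, where all protein-coding genes came closer to boundaries than the Ir genes did. Relative to the size of its domain, the middle of an Ir gene lay at a median of 20.0% of the domain from the nearer edge, against 21.7% for all genes.

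Neighbouring Ir genes were never parted by a boundary. Of the 60 genes, 27 formed 9 runs in which no other protein-coding gene starts between members, and 6 runs had 3 or more members. These were Ir7c to Ir7g on X, Ir52a to Ir52d and Ir56b to Ir56d on 2R, Ir75a to Ir75c on 3L, and Ir94a to Ir94c and Ir94f to Ir94h on 3R. The 18 neighbouring pairs within runs had a median gap of 378.5 bp, and none had a boundary between the midpoints of its genes. Over all protein-coding genes, 11.6% of neighbouring pairs did, and 12.8% of the pairs with a gap of up to 2 kb. With 18 pairs, these shares differ by few pairs. Of the 84 pairs of an Ir gene and a neighbour from outside the family, 13 (15.5%) had a boundary between the midpoints. These 84 pairs had a wider median gap, of 2767.5 bp, against 343 bp over all neighbouring pairs, so the shares are not like for like. For the pair of CG44102 and Ir41a, the boundaries counted lay inside Ir41a.

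The 9 runs took up from 1.22% (Ir94d with Ir94e) to 27.9% (Ir60b with Ir60d, in a domain of 19.6 kb) of their domains. The run Ir7c to Ir7g, which includes the high-salt receptor Ir7c, covered 12.6 kb, or 7.02% of a domain of 179.2 kb. This domain also held Ir7b and, farther away, Ir7a, a taste receptor of acetic acid, among 25 genes in all. Ir52a to Ir52d, of which Ir52c and Ir52d mark leg taste neurons active in courtship, covered 8.74 kb, or 6.72% of a domain of 130 kb. The run lay at the right end of that domain, with Ir52d 2.84 kb and Ir52a 9.77 kb from its edge. Ir56b to Ir56d, which includes Ir56d, a receptor of fatty acid taste, covered 5.41 kb, or 9.45% of a domain of 57.2 kb. The 5 genes of that domain were the 3 Ir genes, CG11007 and CG43111. Ir75a to Ir75c took up 16.7% of their domain and Ir94a to Ir94c 15.7% of a domain of 38.4 kb with 5 genes. Genes that share a number need not share a domain: Ir94a to Ir94c lay in that domain, and Ir94d to Ir94h in another of 376.8 kb more than 1 Mb away. The runs Ir94d with Ir94e and Ir94f to Ir94h stood 46.4 and 125.5 kb from its nearest edge. Over the family, 9 domains held 2 or more members and together 32 of the 60 genes.

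Loop anchors were distant from most Ir genes. The median distance to the nearest anchor was 224.5 kb, with quartiles of 96.6 and 338.8 kb, against 129.5 kb with quartiles of 47.5 and 276.3 kb over all protein-coding genes. An anchor lay 100 kb or more away from 44 of the 60 genes (73.3%, against 57.8% of all genes) and 500 kb or more away from 12 (20%, against 10.2%). The 12 genes included Ir56b, Ir56c and Ir56d, at 902.6 to 906.1 kb, and all 5 members from Ir94d to Ir94h. Neighbours in a run share these distances and are not independent. Ir48c was the only Ir gene within 1 kb of an anchor by a gene end (1.67%), a share close to the 2.14% of all genes.

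**Figure D3:**
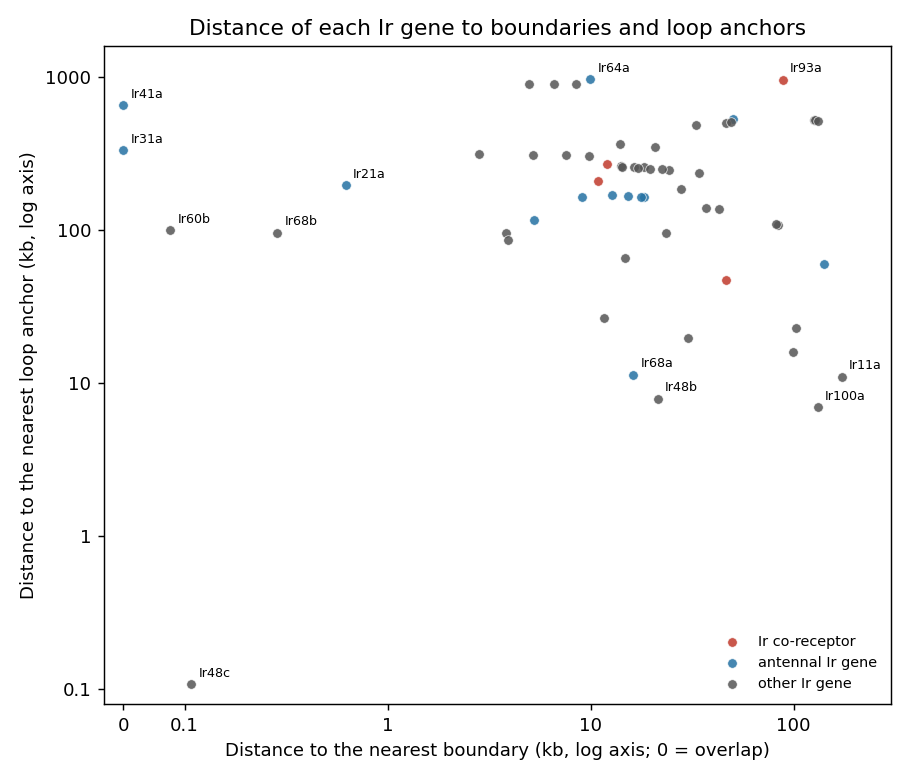
Each point is an Ir gene, with the distance to the nearest boundary (x axis, kb) and to the nearest loop anchor (y axis, kb), both on log axes with overlap drawn at 0, coloured by class. Ir48c, at 108 bp from both, stands apart from the other 59 genes, of which Ir100a, at 6.96 kb, comes next to an anchor.

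Ir48c lay inside ths, which with its neighbour pyr encodes the FGF ligands of the mesoderm, and 3 loops connected this region. The bin beside Ir48c, from 11789601 to 11790000, was both the boundary described above and the right anchor of a loop of value 16.5 (rank 81 of 313). That loop reached 34 kb to the left, to a bin 817 bp from the left end of ths. The adjoining bin, 508 bp from Ir48c, anchored a loop of value 73.6 (rank 15) that spanned 79.6 kb to 11710401, between Ir48b and pyr. A loop of 11.9 joined the bins beside pyr and ths. Ir48c thus lay under 2 loops, those of 73.6 and 16.5, next to their right anchors. Ir48b lay outside these loops, 7.95 kb from the left anchor of the loop of 73.6.

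**Figure D4:**
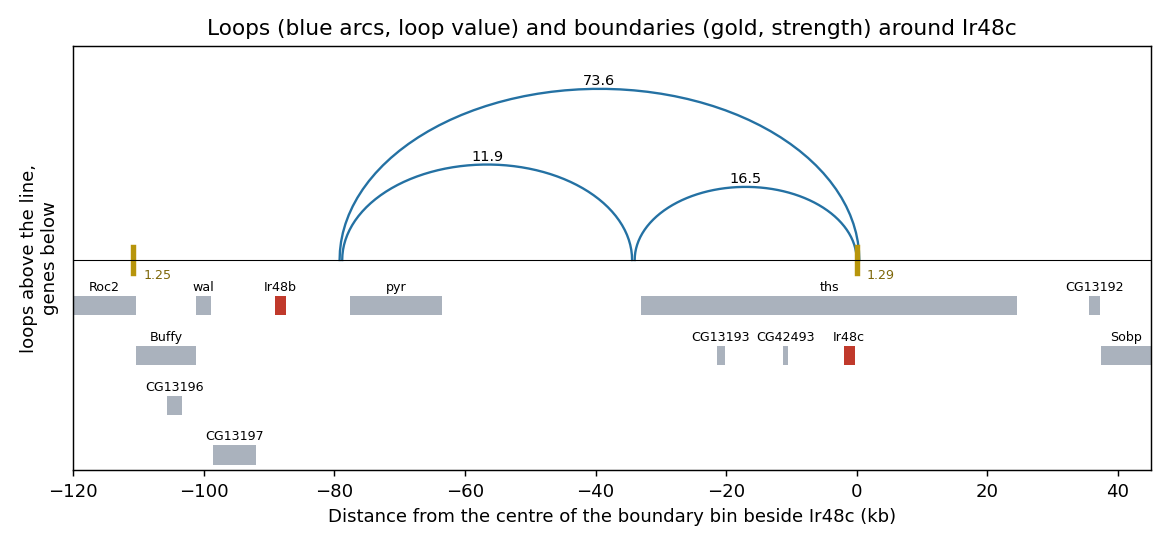
The region around Ir48c is drawn by distance from the centre of the boundary bin beside it (x axis, kb), with loops as arcs labelled by their value, boundaries in gold with their strength, and protein-coding genes as bars below (Ir genes red, others grey). The arcs of 73.6 and 16.5 end next to Ir48c inside ths, and the left foot of the arc of 73.6 stands between Ir48b and pyr.

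In all, 4 Ir genes lay wholly between the anchors of a loop (6.67%, against 3.15% of all genes). None of the 4 is a co-receptor or an antennal receptor. With 4 and 13 genes, those classes are too small for this absence to set them apart from all genes. Besides Ir48c, the genes under a loop were Ir67a, Ir11a and Ir20a. Ir67a lay under 3 loops of low value (4.75, 6.14 and 6.24) with anchors at CG33700, CG42673 and Tmc, 62.4 to 89.6 kb in span. Ir11a lay under a loop of 13.3 that spanned 38 kb, 11.0 kb from its right anchor. Ir20a lay under a loop of 6.07 that spanned 51.2 kb, with its left anchor in DIP-beta. Of the 37 Ir domains, 28 held no whole loop, a count without a share of all gene-bearing domains beside it. Counted per gene, 11 of the 60 Ir genes (18.3%, against 21.4% of all genes) were in a domain with 1 or more. Ir68a stood 11.4 kb from an anchor of 2 long loops, of values 81.6 and 121, which ran away from it over 180.8 and 239.6 kb and crossed the right edge of its domain. Ir100a lay 6963 bp from the right anchor of a loop of 8.69, which overlaps Mccc1 and Acf. An anchor was closer than a boundary for 8 Ir genes (13.3%), a share close to the 12.1% of all genes.

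Genes within genes made up a minor part of the family. Wholly inside the span of another protein-coding gene lay 9 Ir genes (15%, against 11.3% of all genes), and in no case was the containing gene another Ir gene. The gene table gives spans without exons, so it does not say whether they sit in introns. Ir47a lay in SLO2, the gene of a potassium channel, which spans 94.8 kb and holds 16 other nested genes. Ir48c lay in ths (57.6 kb), and Ir56a in the serotonin receptor gene 5-HT1A (54.8 kb). Ir85a lay in Pif1A and Pif1B, which have the same span of 26.9 kb in the table. The other containing genes were shorter, namely nord (11.8 kb, with Ir60a), Iml1, a gene of nutrient signalling (10.6 kb, with the calcium taste receptor Ir62a), row (7.11 kb, with Ir51b), COX6AL2 (5.89 kb, with Ir75d) and CG42233 (5.65 kb, with Ir100a). Ir75d and COX6AL2 share their left end. The only antennal receptor among the 9 was Ir75d.

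Of the 10 containing genes, counting Pif1A and Pif1B apart, ths alone held a boundary or an anchor in its span, with 1 boundary and 2 anchors. A boundary thus overlapped 1 of the 10, against 10.3% of all protein-coding genes. These shares are not like for like, since a longer span has more room for a boundary. The shortest containing gene spans 5.65 kb, and the median length of all protein-coding genes was 2.16 kb. SLO2 had an end 205 bp from the boundary of 1.39 that closes the domain of Ir47a, while Ir47a itself was 37.1 kb from that boundary. A further 4 Ir genes overlapped another gene in part, a count without a share of all genes beside it. The overlap was 2014 bp for Ir76a with CG14102, 921 bp for Ir94d with CG17380, 506 bp for Ir54a with sub and 28 bp for Ir60e with Brca2.

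The odorant receptor (Or) and gustatory receptor (Gr) genes, with 60 members each, are the other large families of chemoreceptors. By their medians, the Ir genes lay closer to boundaries than the Or and Gr genes. They also lay in smaller domains, an order that turned with boundaries of at least the median strength (399.2 kb for Ir, 351.6 kb for Or and 319.2 kb for Gr genes). The median domain was 132 kb for Ir genes, 181.6 kb for Or genes, 192.8 kb for Gr genes and 112.8 kb for all protein-coding genes. The median distance to a boundary was 17.4 kb for Ir genes, 45.2 kb for Or genes, 44.1 kb for Gr genes and 14.2 kb for all. An end within 1 kb of a boundary was found for 5 Ir (8.33%), 3 Or (5%) and 2 Gr genes (3.33%), against 18.2% of all genes. The distances to anchors had another order, with medians of 224.5 kb for Ir genes, 92.7 kb for Or genes, 157.8 kb for Gr genes and 129.5 kb for all. Apart from Ir48c, no member of the 3 families stood within 1 kb of an anchor. Wholly between the anchors of a loop lay 4 Ir (6.67%), 7 Or (11.7%) and 6 Gr genes (10%), against 3.15% of all genes. Domains of 100 kb or more held 68.3% of Ir, 70% of Or and 83.3% of Gr genes, against 54.1% of all genes. These differences were not tested, and neighbouring members of each family share their domains.

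**Figure D5:**
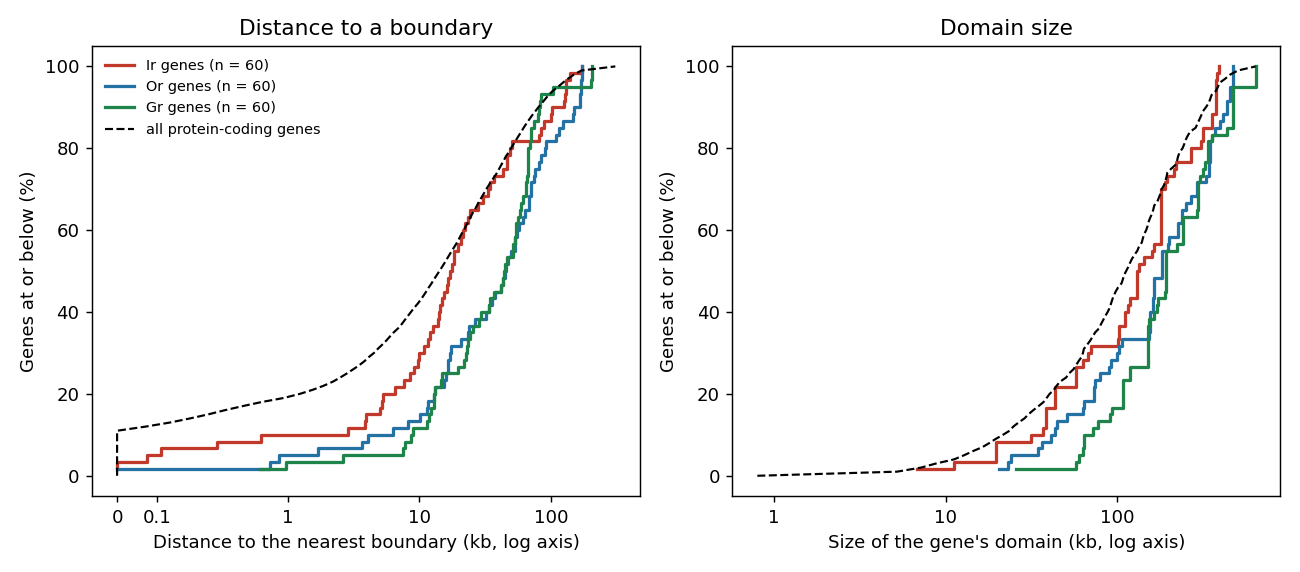
The curves give the percentage of genes (y axis) at or below a distance to the nearest boundary (left, kb, log axis, overlap drawn at 0) and at or below a domain size (right, kb, log axis) for Ir, Or and Gr genes and all protein-coding genes. In the left plot the Ir curve lies between those of the other receptor families and of all genes up to the median, where it reads 17.4 kb, against 45.2 kb for Or, 44.1 kb for Gr and 14.2 kb for all genes.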

How the data were processed

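The 3 deposited files list boundaries, loops and loop anchors of the yw line (2 samples, not separated in the files). Per the submitters' processing notes, the aligner was BWA 0.7.17 and the build dm6; later steps, and any pooling of samples, were not given in the sources used here. Boundary strengths and loop values are scores deposited by the authors on an unstated scale, and loops came from the SIP caller per the file headers. The loop probability, a fraction deposited by the authors, was not used.

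Of 2034 boundary entries, 14 exact repeats were removed, and 1930 of the 2020 left lay on the 6 compared arms. Genes came from the RefSeq table of Release 6. A gene's domain is that of its midpoint. A gene is near a feature when an end is within 1 kb, and its distance is 0 where spans overlap by at least 1 bp. The search of promoters for motifs and the distance to transcription starts were not run, since no strand or sequence was used. Members and lists were chosen with earlier results of these data known, and every member could be named. No test was made. Code (Python 3.11.15, pandas 2.3.3) was tested on simulated positions.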

Additional observations from a re-analysis of the deposited data

How the results depend on the processing

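The count of Ir genes near a boundary, 5 of 60, was 9 within 5 kb (31.1% of all genes) and 3 with boundaries of at least the median strength (8.16% of all genes). It was 4 within 500 bp (15.9% of all genes) and 5 within 2 kb (21.6% of all genes). With features in the gene body it was 6, without nested genes 4 of 51, and with 1 gene per run 5 of 42 (11.9%). For gene bodies, nested genes and runs, no share over all genes is given here at the same setting. The count near an anchor stayed at 1 except without nested genes, where it was 0, since Ir48c is nested. With boundaries of at least the median strength, the median domain of an Ir gene was 399.2 kb (252.4 kb over all genes), the median distance to a boundary 35.9 kb (42.4 kb over all genes), and 93.3% of Ir genes lay in domains of 100 kb or more (83.2% of all genes). Under this setting the Ir genes were closer to a boundary than all genes by the median, the opposite of the order with all boundaries. The cause was not tested. With each domain counted once, the median was 134 kb and the share 70.3%. For Or genes they were 159.4 kb and 63%, and for Gr genes 164.4 kb and 72.7%. Over all gene-bearing domains they were 45.2 kb and 26.5%. That last comparison is not like for like, since a large domain holds more genes and enters any gene list more readily. Without nested genes the median was 130 kb. A limit of 50 kb gave a share of 78.3% (75.8% of all genes). From gene midpoints, the median distance to a boundary was 19.0 kb (17.6 kb over all genes), a narrower gap than between the medians from gene spans. To an anchor it was 225.8 kb, and no value over all genes is given here at that setting. The median distance to an anchor of a loop in the upper part by value (median or above) was 395.4 kb (310.1 kb over all genes). Domains with an Ir gene numbered 35 with stronger boundaries or with genes wholly inside, against 37. In all, 13 Ir genes overlapped another gene at all, against 9 nested, and the share of all genes with any overlap is not given here. No paired analysis was possible because the lists have no column per sample. Leaving out a sample could not be done for the same reason, and what depth limits is unknown.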

Other observations

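Some Ir genes shared a domain with other receptor genes. An Or or Gr gene lay in 5 of the 37 Ir domains (13.5%), against 4.71% of the 1571 domains that hold a protein-coding gene. All 5 were domains of 100 kb or more, of which there were 26 with an Ir gene (19.2%), against 12% of the 416 gene-bearing domains of that size. This difference was not tested. These were Or67a with Ir67a (102 kb), Or67d, the receptor of the male pheromone cVA, with Ir67b and Ir67c (268.8 kb), Gr8a with Ir8a (118.8 kb), Gr47a with Ir47a (164.4 kb) and Gr92a with Ir92a (358 kb). The domain of the co-receptor Ir93a (354.8 kb, 44 genes) also held 4 of the 13 ionotropic glutamate receptor genes, namely GluRIID, GluRIIE, KaiR1D and Grik. Over those 13 genes the median domain was 192.4 kb, against 112.8 kb over all protein-coding genes. Of the 13, 10 (76.9%) lay in domains of 100 kb or more, against 54.1% of all genes. The 13 genes lay in only 9 domains, 6 of them of 100 kb or more, so these placements are not independent.

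Of the 6 Ir pseudogenes, all on 2R, 5 lay in a domain that also holds an Ir gene. The share of all genes that lie in such a domain is not given here, so this count has no reference. Ir60c and Ir60f were in the domain of 19.6 kb with Ir60b, Ir60d and Ir60e, at 2.22 and 5.77 kb from the nearest boundary. Ir47b, Ir48a and Ir51a lay in the domains of Ir47a, of Ir48b and Ir48c, and of Ir51b. Ir56e was in a domain of 108.8 kb without an Ir gene, 1047 kb from the nearest anchor.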
